A study of Mus musculus with 4 samples.

Results

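The cluster described here is the set of nuclei that the authors' annotation of the mouse hypothalamus names only as non-neuronal cells, without a glial type. Its members were taken as annotated and number 207 of 56386 annotated nuclei. They came from 4 libraries of single-nucleus RNA sequencing, in which each unique molecular identifier (UMI) counts 1 captured transcript. The hypothalami were from adult male mice on a C57/BL6NCr background, either wild-type or heterozygous for the R384C point mutation of thyroid hormone receptor α1 (TRα1+m), which lowers the affinity of the receptor for its hormone in every cell that makes it. Snap-frozen hypothalami of 3 mice of a genotype were pooled for each library, and both genotypes were run in each of 2 experimental repeats, which makes the pool the replicate (n = 2 per genotype). The mutation changes 1 amino acid, so the level of Thra, the gene that encodes the receptor, does not check the genotype labels.

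Astrocytes take up glutamate and potassium from around synapses, are coupled by gap junctions and supply lipids to their neighbours. Oligodendrocytes wrap axons in myelin, and their maturation is a textbook target of thyroid hormone, which acts through nuclear receptors that bind DNA with a retinoid X receptor partner. The programmes of both glial types are normally carried by separate cells.

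The cluster held 57 and 36 nuclei in wild-type repeats 1 and 2, and 80 and 34 in TRα1+m repeats 1 and 2. Total UMIs of its nuclei were 183649 and 146822 in wild-type, and 242028 and 113752 in TRα1+m. Levels are given as CPM, a gene's UMIs scaled to a common library total, and a gene at 100 CPM rested on few UMIs in a library. A barcode of 2 of the 207 nuclei was also present in another library, and no barcode was shared within the cluster.

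The nuclei of the cluster carried transcripts of both glial types together. Slc1a2, the main glutamate transporter of astrocytes, had a UMI in 99.0% of the 207 nuclei, against 97.4% of 8007 astrocytes and 38.5% of 6135 oligodendrocytes. Agt, which encodes angiotensinogen and is an astrocyte gene in brain, was found in 77.3% of the cluster, 78.4% of astrocytes and 11.4% of oligodendrocytes. Mag, an adhesion protein of the myelin sheath, was found in 73.9% of the cluster, 4.13% of astrocytes and 74.5% of oligodendrocytes. Mobp, a structural myelin gene, was found in 65.7%, 16.9% and 68.8%, respectively. In the main neuronal cluster, where these 4 genes serve as background at a median depth of 4380 UMIs, shares were 47.1% for Slc1a2, 12.6% for Agt, 5.15% for Mag and 17.6% for Mobp. The median depth of the cluster was 3072 UMIs. All 4 markers were present in 82 of the 207 nuclei (39.6%), in 0.574% of astrocytes and in 2.46% of oligodendrocytes. Because the clustering used these genes, the shares describe the cluster and are not a test of it.

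Levels of the 4 markers differed between libraries. Slc1a2 was at 1857 and 1696 CPM in wild-type repeats 1 and 2 and at 2016 and 2435 CPM in TRα1+m. Agt was at 376 and 1090 CPM in wild-type and at 578 and 1117 CPM in TRα1+m, and was higher in repeat 2 of each genotype. Astrocytes of the same libraries held 628 and 1790 CPM of Agt in wild-type, and 744 and 2287 CPM in TRα1+m, with the same order of the repeats. Mag was at 425 and 565 CPM in wild-type and at 446 and 853 CPM in TRα1+m, again higher in repeat 2, and oligodendrocytes held 742, 1426, 679 and 1659 CPM of Mag in the same order of libraries. Mobp showed less spread, with 376, 449, 504 and 475 CPM. The genotypes overlapped for Agt and Mag, while Slc1a2 and Mobp were higher in both TRα1+m libraries than in both wild-type libraries. Within each repeat, each of the 4 markers was higher in TRα1+m. None of the 4 markers passed edgeR's quasi-likelihood test between genotypes (Benjamini-Hochberg adjusted p of 1.00 for each).

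The wider lists also showed transcripts of both glial types. The 20 astrocyte genes together reached 17882 ± 2352 CPM in the cluster (SD, n = 4 libraries), 27077 ± 4369 CPM in astrocytes and 2068 ± 548 CPM in oligodendrocytes. Gpc5, a heparan sulphate proteoglycan, was the most abundant with 5050 ± 785 CPM, followed by the bicarbonate cotransporter Slc4a4 with 2310 ± 189 CPM. The 20 oligodendrocyte genes together reached 14896 ± 4623 CPM in the cluster, 28121 ± 10056 CPM in oligodendrocytes and 1440 ± 133 CPM in astrocytes. Of this list, the transcription factor St18 was at 1667 ± 268 CPM. Expressed per nucleus, the cluster carried 1.11 ± 0.0815 times the astrocyte-list UMIs of an astrocyte (SD over 4 libraries), and 1.06 ± 0.0711 times the oligodendrocyte-list UMIs of an oligodendrocyte. An average nucleus of the cluster thus held about as many UMIs of each list as the glial type that the list marks.

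**Figure D1:**
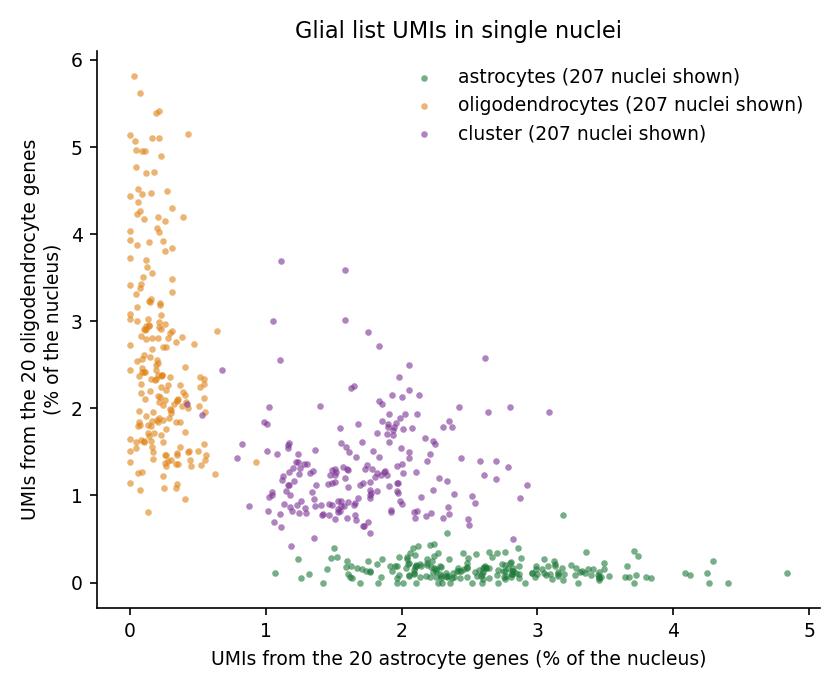
Share of a nucleus' UMIs that came from the 20 astrocyte genes (x axis, percent) and from the 20 oligodendrocyte genes (y axis, percent). Each point is 1 nucleus: all 207 of the cluster and seeded draws of 207 astrocytes and 207 oligodendrocytes over the 4 libraries. Most nuclei of the cluster lie between the 2 arms, with medians of 1.71% and 1.25%.

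Single nuclei were mixed, not only their average. Within the cluster the astrocyte list made up a median of 1.71% of a nucleus' UMIs (lowest 0.421%, highest 3.09%), and the oligodendrocyte list 1.25% (lowest 0.420%, highest 3.69%). Of the UMIs of both lists together, the astrocyte genes made up a median of 57.1%, and this part lay between 20 and 80% in 205 of the 207 nuclei. The same range held 1.75% of astrocytes and 8.56% of oligodendrocytes. At least 4 genes of each list were present in 206 of 207 nuclei, against 12.2% of astrocytes and 33.9% of oligodendrocytes. After each nucleus was thinned to 900 UMIs, the share was 90.3% in the cluster, 1.90% in astrocytes and 10.6% in oligodendrocytes.

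A stricter definition, with at least 1% of a nucleus' UMIs from each list, was met by 161 annotated nuclei in the whole data set, of which 138 belonged to the cluster. The share of the cluster that met it was 50.9% and 88.9% in wild-type repeats 1 and 2, and 55.0% and 97.1% in TRα1+m, so it was higher in repeat 2 of each genotype. The authors left 4034 barcodes without annotation although these met the limits on UMIs, genes and mitochondrial share. Of these barcodes, 89 (2.21%) met this definition, against 0.286% of all annotated nuclei. The methods of the study state that nuclei with a high predicted doublet score were removed before clustering. The study also describes a higher distribution of doublet scores in these nuclei than in others. It refers to a similar cluster in earlier data from the lateral hypothalamic area, which was annotated there as doublets. It also reports that many marker genes of the cluster were shared with those of oligodendrocytes or astrocytes. It calls doublets of astrocytes with oligodendrocytes unlikely because nuclei were sequenced, but left the cluster out of its further comparisons as a precaution. Doublet scores were not used here, and whether droplets that captured several nuclei contributed to the cluster was not tested.

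Nuclei of the cluster were deeper than those of either glial type. Median UMIs per nucleus were 2996 and 3993 in wild-type repeats 1 and 2, and 2799 and 3076.5 in TRα1+m. Relative to astrocytes of the same library the median was 1.69-fold higher (range 1.57 to 1.82 over 4 libraries), and relative to oligodendrocytes 1.97-fold higher (range 1.85 to 2.20). Each ratio was above 1 in 4 of 4 libraries (exact two-sided sign-flip permutation test, at the smallest p that 4 libraries allow, which is above 0.05). The cluster median was 0.909 times the sum of the astrocyte and oligodendrocyte medians (range 0.850 to 0.995). Against all annotated nuclei, most of which were neurons, the ratio was 0.963. Single nuclei of the cluster ranged from 1354 to 8744 UMIs.

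**Figure D2:**
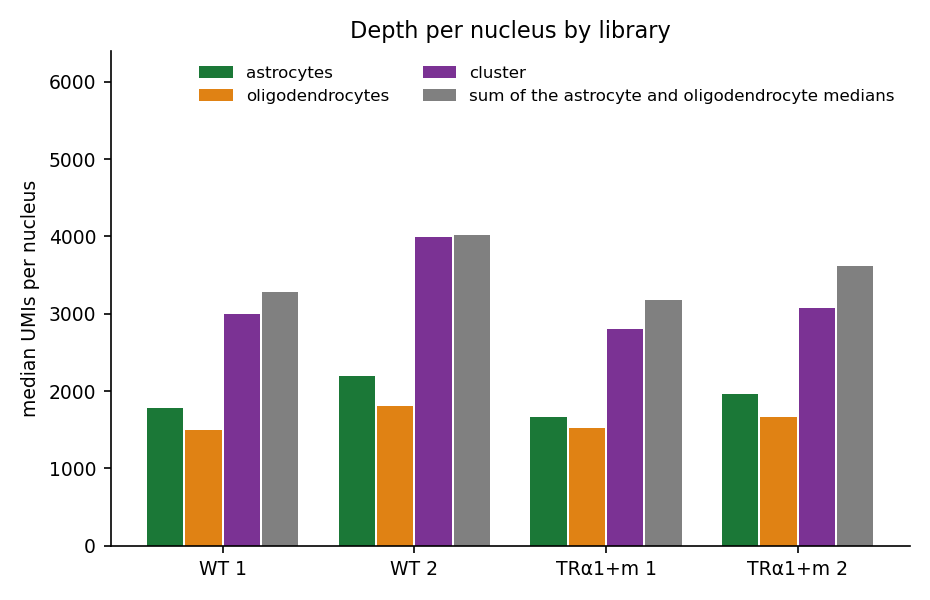
Median UMIs per nucleus (y axis) in each library (x axis) for astrocytes, oligodendrocytes, the cluster, and the sum of the 2 glial medians. The cluster lies above both glial types in each of the 4 libraries, at 2996, 3993, 2799 and 3076.5 UMIs, and below their sum.

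No difference between genotypes in depth or abundance was detectable with 2 libraries each. The library medians gave a TRα1+m to wild-type difference of -0.24 on the log2 scale (exact two-sided permutation test, p = 0.667, 2 against 2 libraries, where the smallest possible p is 0.333). The cluster made up 0.389% and 0.270% of annotated nuclei in wild-type, with exact 95% binomial intervals of 0.295 to 0.504% and 0.189 to 0.374%. In TRα1+m it made up 0.487% (0.386 to 0.605%) and 0.284% (0.197 to 0.396%). These intervals cover counting error only. The means were 0.330 ± 0.0840% and 0.385 ± 0.143% (SD, n = 2 each, exact permutation p = 0.667), and repeat 1 had the higher share in each genotype. Within each repeat the share was higher and the median depth lower in TRα1+m. The difference in share turned around without wild-type repeat 2 (-0.00369 percentage points) or TRα1+m repeat 1 (-0.0457 percentage points), where the repeats are no longer balanced between genotypes.

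The summed profile of the cluster was then compared with the other annotated types of the same library. Non-negative least squares over 32285 genes fitted it as a weighted sum of astrocytes, tanycytes, oligodendrocytes, oligodendrocyte precursor cells (OPCs), microglia with macrophages, and neurons. Astrocytes had a weight of 0.582 ± 0.0344 and oligodendrocytes of 0.505 ± 0.0299 (SD, n = 4). OPCs had a weight of 0.00926 ± 0.00662, and tanycytes, microglia and neurons a weight of 0 in all 4 libraries. The coefficient of determination of the fit was 0.990 ± 0.00666, with the lowest library at 0.980. It was 0.967 to 0.980 without mitochondrial genes and Malat1, the most abundant transcript, and 0.910 to 0.936 on the square root of CPM. Astrocytes made up 56.1% and 55.6% of the sum of both glial weights in wild-type, and 50.8% and 51.8% in TRα1+m. The libraries of the genotypes did not overlap, and the wild-type mean was higher by 4.51 percentage points (exact two-sided permutation test, p = 0.333, the smallest p possible with 2 against 2).

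Of 1345 genes with at least 100 CPM in all 4 libraries of the cluster, 1324 (98.4%) were within 2-fold of the fitted mixture on average. None of these 1345 genes was above 2-fold in every library. Pmch, the neuropeptide precursor of melanin-concentrating hormone neurons, was below 2-fold in every library, with 281 CPM in the cluster and 781 CPM in the mixture. Other genes well below the mixture were the neuronal transcripts Snhg11 (272 against 559 CPM) and Meg3 (291 against 605 CPM) and the translation factor Eef1a1 (287 against 573 CPM). The 38 ribosomal protein genes were at a median of -0.79 on the log2 scale relative to the mixture, whereas the median of all 1345 genes was 0.00. Of the 1345 genes, Nim1k, a protein kinase, was furthest above the mixture in its lowest library (206 against 154 CPM). It was followed by the endocytic adaptor Hip1 (209 against 157 CPM) and the endosomal tethering factor Vps8 (206 against 137 CPM).

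**Figure D3:**
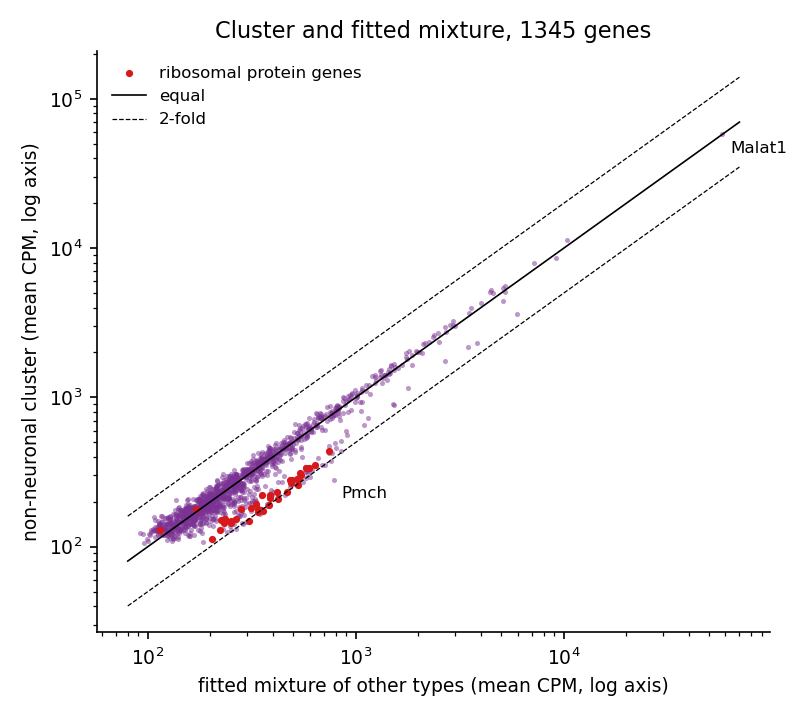
Mean CPM over 4 libraries in the cluster (y axis, log scale) against the fitted mixture of the other types (x axis, log scale) for 1345 genes. The solid line marks equal values and the dashed lines a 2-fold difference. Of these genes, 1324 lie within 2-fold, the 38 ribosomal protein genes lie mostly below the line, and Pmch lies lowest relative to it.

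Few genes were higher in the cluster than everywhere else. Among the most abundant transcripts were Malat1, Pcdh9, Apoe, Lsamp, Nkain2, Trpm3, Gpc5 and Pde4b. Nkain2 and Pde4b were oligodendrocyte-rich (10067 and 8333 CPM in oligodendrocytes, 250 and 583 CPM in astrocytes), whereas Lsamp, Trpm3 and Gpc5 were astrocyte-rich (11210, 7541 and 7438 CPM in astrocytes, 1129, 153 and 104 CPM in oligodendrocytes). The cluster lay between, with 5614 CPM of Nkain2, 5003 CPM of Pde4b and 7958 CPM of Lsamp. Of the 1345 genes, 19 exceeded each other main cluster in every library, and none did so by 1.5-fold. The largest lowest-library ratios belonged to Dock1, a guanine nucleotide exchange factor (1.20-fold, 494 ± 8.06 CPM), the homeobox gene Meis1 (1.19-fold), Swt1 (1.19-fold) and the nuclear receptor coactivator Ncoa6 (1.10-fold). They were followed by Depdc5, Kirrel3, Tmc7, 4930402H24Rik, Cdh20 and Gpatch8, at 1.07- to 1.03-fold. Against 19 sub-clusters in place of the main clusters, the count was 4 genes. At a limit of 50 CPM it was 32 genes against the main clusters, and it was also higher with each library left out.

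Functional gene groups of either glial type were present side by side. Among 8 genes for glutamate and potassium uptake, the glutamate transporter Slc1a3 reached 1410 ± 64.6 CPM, and the list as a whole held 1.12 ± 0.0718 times the UMIs per nucleus of astrocytes. Among 5 gap junction connexins, the astrocytic Gja1 was at 735 ± 183 CPM and the oligodendrocytic Gjc3 at 282 ± 64.8 CPM. This list held 1.64 ± 0.122 times the UMIs per nucleus of astrocytes and 3.41 ± 0.869 times those of oligodendrocytes. Of 7 transcription factors of the oligodendrocyte lineage, Sox10 was at 69.0 ± 32.3 CPM and Myrf at 68.0 ± 7.73 CPM, between both glial types (5.57 and 3.68 CPM in astrocytes, 141 and 151 CPM in oligodendrocytes). Cholesterol synthesis genes summed to 853 ± 273 CPM, led by Msmo1 with 208 ± 105 CPM.

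Several genes of thyroid hormone action were detected in the cluster. Thra was at 185 ± 26.5 CPM in the cluster (n = 4), 157 CPM in astrocytes and 238 CPM in oligodendrocytes. Thrb, which encodes the second receptor, was at 236 ± 17.9 CPM in the cluster, 405 CPM in astrocytes and 46.0 CPM in oligodendrocytes. The hormone transporter Slco1c1 was at 116 ± 11.4 CPM (164 CPM in astrocytes, 7.83 CPM in oligodendrocytes) and the hormone-responsive transcription factor Klf9 at 174 ± 19.6 CPM (197 and 94.6 CPM). These 4 genes lay between the glial types, whereas the corepressor Ncor1, at 333 ± 45.1 CPM, was above both (267 and 257 CPM). Dio2, which activates the hormone, and Dio3, which inactivates it, had no UMI in any of the 4 libraries.

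Lists of other cell types summed to lower levels than those of astrocytes and oligodendrocytes. Defining markers of OPCs were near 0, with Pdgfra at 3.76 ± 5.14 CPM and Cspg4 at 4.40 ± 8.79 CPM, and 24 of the 207 nuclei (11.6%) had at least 2 of the 8 OPC genes, against 4.57% of the shallower astrocytes and 3.24% of oligodendrocytes. The OPC list summed to 216 ± 86.2 CPM, with Lhfpl3 as its most abundant gene (118 CPM), and its UMIs per nucleus were 1.32 ± 0.565 times those of astrocytes and 2.09 ± 0.333 times those of oligodendrocytes. Of 12 microglial genes, Ptprc and Inpp5d had no UMI, and the list summed to 114 ± 34.3 CPM. The tanycyte genes Rax and Dio2 and the endothelial gene Slco1a4 had no UMI, and those lists summed to 92.8 ± 32.7 CPM, mostly from Col23a1, and to 23.4 ± 18.2 CPM. Ependymal genes summed to 94.2 ± 25.5 CPM and mural genes to 106 ± 39.9 CPM, led by Rarres2 (52.2 CPM) and Notch3 (50.4 CPM), which astrocytes held at 86.7 and 57.8 CPM. Genes of vascular leptomeningeal cells and of the pituitary summed to 24.5 ± 15.6 and 11.6 ± 9.30 CPM. Genes of newly formed oligodendrocytes summed to 336 ± 44.2 CPM, led by Bcas1 with 244 CPM, while Bmp4 had no UMI. The 10 neuronal genes summed to 1100 ± 168 CPM, led by Meg3. Per nucleus their UMIs were 0.959 ± 0.0898 times those of astrocytes and 0.968 ± 0.0677 times those of oligodendrocytes. The 13 mitochondrial transcripts were at 1.21 ± 0.124 and 1.27 ± 0.0461 times the astrocyte and oligodendrocyte values per nucleus, but lower per UMI, with 13638 ± 1453 CPM in the cluster, 19020 CPM in astrocytes and 21277 CPM in oligodendrocytes.

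To ask whether the mutation altered transcripts of the cluster, UMIs were summed per library and tested with edgeR's quasi-likelihood test. Of 3705 genes tested, 1 was called at an adjusted p of 0.05 (0.027% of genes tested). A530053G22Rik (ENSMUSG00000046764), a long non-coding RNA on the minus strand at GRCm38 chr6:60279043-60403707, fell by 4.06 on the log2 scale in TRα1+m (SE 0.473, adjusted p = 0.0199). It was at 218 and 300 CPM in wild-type repeats 1 and 2 and at 12.4 and 17.6 CPM in TRα1+m, so that the genotypes did not overlap. Its UMIs came from few nuclei. In wild-type, 7 of 57 nuclei held its 40 UMIs, 23 of them in 1 nucleus, and 4 of 36 nuclei held its 44 UMIs, 19 of them in 1 nucleus. In TRα1+m 1 nucleus of each library held its 3 and 2 UMIs. With equal numbers of 34 nuclei per library the gene was no longer called (adjusted p = 0.0698). Oligodendrocytes held 60.2 and 190 CPM of it in wild-type and 3.70 and 7.52 CPM in TRα1+m, whereas astrocytes held at most 1.39 CPM. In the cluster its level was 7.34, 3.30, 6.17 and 4.58 times that of the fitted mixture in the 4 libraries.

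Repeats were processed in parallel for both genotypes. A fit with the experimental repeat as a block called 57 genes, 29 higher and 28 lower in TRα1+m. These were 0.783% and 0.756% of the 3705 genes tested. With 4 libraries such a fit leaves little replication per gene, so its p values rest largely on variance estimates shared across genes. Chsy3 was among the 57 (log2 difference 2.05, adjusted p = 1.19e-06 in edgeR with the block). It was at 65.3 and 68.1 CPM in wild-type and 454 and 61.5 CPM in TRα1+m, so that TRα1+m repeat 1 alone stood higher. The 9 genes that followed A530053G22Rik by p in the fit without the block were not called there, and each was called with the block. Among them, Tmem117, a transmembrane protein, was at 261 and 327 CPM in wild-type and 41.3 and 70.3 CPM in TRα1+m (log2 difference -2.42, adjusted p = 0.152 in edgeR). Slco3a1, an organic anion transporter, was at 196 and 116 against 24.8 and 26.4 CPM. The metabotropic glutamate receptor Grm7 was at 702 and 879 against 347 and 193 CPM, and the kinesin Kif13b at 392 and 388 against 161 and 149 CPM. The antisense transcript 9330111N05Rik was at 196 and 252 against 12.4 and 70.3 CPM. Ddc, which encodes aromatic L-amino acid decarboxylase, was in the opposite direction, with 27.2 and 6.81 CPM in wild-type and 128 and 132 CPM in TRα1+m. Kirrel3, an adhesion molecule, was at 931 and 1022 against 1545 and 2092 CPM, and the non-coding RNA Sox2ot at 800 and 960 against 1413 and 1459 CPM. Mitf, a transcription factor, was at 218 and 218 against 70.2 and 70.3 CPM. The genotypes did not overlap for any of these genes, which were chosen for a low p. Of all 3705 genes tested, 12.8% were higher and 19.9% lower in both TRα1+m libraries than in both wild-type libraries.

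Several of these genes showed the same order of genotypes in oligodendrocytes of the same libraries, where 13 of 12630 genes were called without the block (0.103%, with 0.0396% higher and 0.0633% lower in TRα1+m) and 550 with it (4.35%, with 2.14% higher and 2.22% lower). With the block, each of the 10 genes of lowest p other than Mitf was called in oligodendrocytes. Tmem117 was at 290 and 370 CPM in wild-type oligodendrocytes and 26.6 and 33.3 CPM in TRα1+m, Slco3a1 at 241 and 264 against 40.7 and 42.0 CPM, and Ddc at 48.6 and 47.5 against 234 and 259 CPM. In astrocytes edgeR called 0 of 14072 genes without the block, with 312 at an unadjusted p below 0.05, and 245 with it (1.74%, with 1.04% higher and 0.696% lower). None of these genes that could be tested in astrocytes was called there with the block. They held 70.4 and 94.7 against 62.7 and 84.3 CPM of Tmem117 and 13.4 and 17.4 against 13.8 and 10.4 CPM of Ddc. Mitf was an exception, with 167 and 146 against 125 and 149 CPM in oligodendrocytes and 98.3 and 111 against 78.2 and 86.0 CPM in astrocytes. Its levels in the cluster were 1.52 and 1.59 times the fitted mixture in wild-type and 0.62 and 0.56 times in TRα1+m. The cluster and the glial types share libraries, so these values are given side by side and are not independent evidence of each other.

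**Figure D4:**
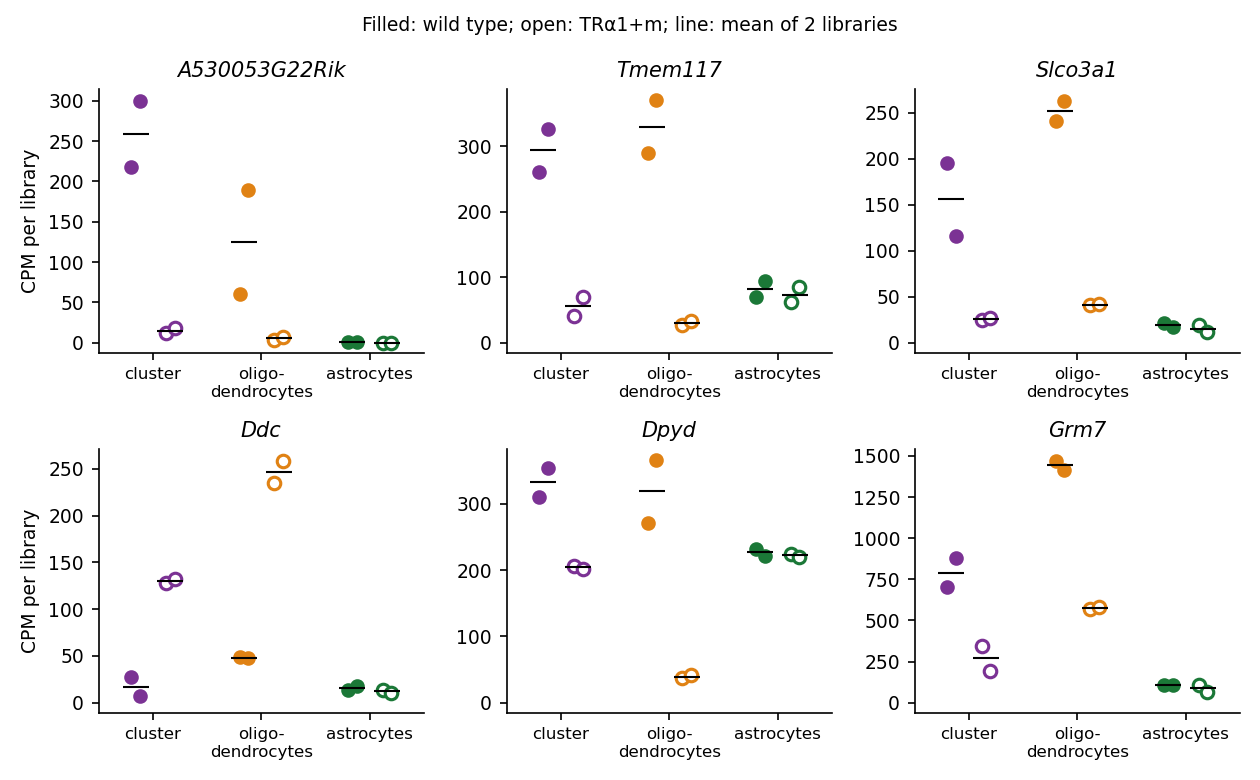
CPM per library (y axis) of 6 genes in the cluster, oligodendrocytes and astrocytes (x axis). Filled points are wild-type and open points TRα1+m libraries, and lines are means of 2 libraries. Tmem117, Slco3a1 and Grm7 are lower and Ddc higher in TRα1+m in the cluster and in oligodendrocytes, while Dpyd differs less in the cluster than in oligodendrocytes.

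None of the gene lists held a gene called without the block. Of the 19 astrocyte genes tested, 1 was higher and 2 were lower in both TRα1+m libraries than in both wild-type libraries, and of 19 oligodendrocyte genes 3 were higher and 2 lower. Over all 3705 genes these shares were 12.8% higher and 19.9% lower. Median log2 differences were 0.00 for the astrocyte and 0.24 for the oligodendrocyte list, beside 0.01 for all genes. Of the 5 genes of thyroid hormone action tested, 3 were lower in both TRα1+m libraries, with a median of -0.10. Thra itself was at 196 and 184 against 149 and 211 CPM. The 7 uptake genes tested had 2 higher and 3 lower, the 11 mitochondrial transcripts 4 lower, and the 5 cholesterol genes and 4 connexins none without overlap. Of the 5 neuronal genes tested 1 was higher and 1 lower, of the 2 genes of newly formed oligodendrocytes 1 was lower, of the 3 lineage transcription factors 1 was higher, and the only tanycyte gene tested, Col23a1, was higher. The only OPC gene tested, Lhfpl3, overlapped between genotypes. No gene of the microglial, ependymal, endothelial, mural, leptomeningeal or pituitary lists had enough UMIs to be tested. The study had named 19 genes for genotype effects on these same libraries, so they are no independent evidence. Of the 15 that could be tested here, none was called without the block, and Tmem117, Slco3a1 and Hcn2 were called with it, beside 1.54% of all genes tested. Hcn2, a pacemaker channel subunit, was at 70.8 and 163 CPM in wild-type and 16.5 and 26.4 CPM in TRα1+m.

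The genotype effect was next compared between the cluster and each glial type with an interaction term, keeping the library as a block. Against oligodendrocytes, 6 of 12271 genes differed (0.0489%, with 0.0163% more positive and 0.0326% more negative in the cluster). Dpyd, which encodes the pyrimidine-degrading enzyme dihydropyrimidine dehydrogenase, had the lowest p, and its genotype effect was 2.35 higher on the log2 scale in the cluster (adjusted p = 3.96e-10 in edgeR). It was at 310 and 354 CPM in wild-type and 207 and 202 CPM in TRα1+m in the cluster, and at 272 and 366 against 36.6 and 41.2 CPM in oligodendrocytes. Astrocytes held 231 and 222 against 225 and 220 CPM of Dpyd. In the cluster Dpyd was at 1.12 and 1.12 times the fitted mixture in wild-type and 1.34 and 1.30 times in TRα1+m. Nckap5, the cyclin gene Ccnd3 and the collagen gene Col23a1 were higher in TRα1+m oligodendrocytes by a wider margin than in the cluster (interactions of -1.13, -1.81 and -2.59). Ccnd3 was at 169 and 116 against 194 and 290 CPM in the cluster, and at 40.5 and 39.4 against 212 and 253 CPM in oligodendrocytes. Relative to the fitted mixture, Nckap5 was at 0.917 and 1.22 times in wild-type and 1.02 and 1.03 times in TRα1+m. Ccnd3 was at 1.27 and 0.995 against 0.881 and 1.22 times, and Col23a1 at 2.04 and 1.07 against 0.796 and 0.788 times. Whether the mixed transcripts of the cluster account for these interactions was not tested. The number of calls rested on the fit, since DESeq2 called 1 gene, Dpyd, and a bias-adjusted edgeR fit called 0, with 469 genes at an unadjusted p below 0.05.

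Against astrocytes, 12 of 13470 genes differed (0.0891%, with 0.052% more positive and 0.0371% more negative in the cluster), with Tmem117 (-2.24), Grm7 (-1.18), Sox2ot (0.91), Ddc (3.18) and Kirrel3 (0.79) among them. Anks1b, Adipor2 and Cadps had interactions of -1.40, -1.46 and -1.58. DESeq2 and the bias-adjusted edgeR fit each called 0 genes, with 125 and 605 at an unadjusted p below 0.05. For Chsy3, a chondroitin synthase, the call rested on TRα1+m repeat 1, which held 110 UMIs, 30 of them in 1 nucleus, against 12, 10 and 7 UMIs in the other libraries. Without that library its interaction was -0.0324 in place of 2.01.

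Promoter sequence of the genes with the lowest p is shown for its bearing on receptor binding. RefSeq promoter windows, from 250 bases before to 50 bases after a start site, were found for 6 of these 10 genes, 10 windows in all. They were searched on both strands for AGGTCA, the half-site that thyroid hormone receptors bind. It occurred in 2 of the 10 windows, 1 of Ddc and 1 of Mitf, and in 16.3% of all 32851 windows. The 250 bases before the start are given 5′ to 3′ on the gene's strand (minus for both, build GRCm38.p6), with a match in capitals, for the called gene, which holds none, at chr6:60403708-60403957, and for Ddc at chr11:11898145-11898394. A match describes the letters only.
A530053G22Rik: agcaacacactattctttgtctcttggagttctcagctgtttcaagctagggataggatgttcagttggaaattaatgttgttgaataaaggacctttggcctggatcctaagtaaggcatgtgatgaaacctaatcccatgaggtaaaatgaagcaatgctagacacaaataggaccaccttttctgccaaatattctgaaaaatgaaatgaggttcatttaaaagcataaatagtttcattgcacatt
Ddc: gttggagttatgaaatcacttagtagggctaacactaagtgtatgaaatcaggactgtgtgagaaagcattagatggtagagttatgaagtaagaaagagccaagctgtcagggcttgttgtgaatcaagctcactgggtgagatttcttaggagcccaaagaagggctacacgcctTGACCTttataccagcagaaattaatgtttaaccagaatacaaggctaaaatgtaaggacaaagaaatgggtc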

How the data were processed

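Nuclei of snap-frozen hypothalamus were sequenced on the 10x platform. Reads were aligned and UMIs counted by the authors in Cell Ranger 5.0.1, introns included, on mm10 (GRCm38), and the authors clustered nuclei in Seurat after limits of at least 900 UMIs, at least 700 genes and at most 5% mitochondrial UMIs and a filter on doublet scores. The deposited matrices hold raw UMI counts of 32285 genes and the deposited table names the cluster of each nucleus, both used as given. Counts were summed per library and cluster and tested in edgeR 4.0.16 (R 4.3.3; filterByExpr, TMM, robust quasi-likelihood F-test, two-sided, Benjamini-Hochberg over all genes tested, adjusted p 0.05), with DESeq2 1.42.0, other filters, scalings and fits, equal nuclei per library and each library left out as alternatives. Single values per library were compared by exact permutation in Python 3.11.15, and the mixture and the binomial intervals were computed in scipy 1.17.1. The genotype test without the block was checked on simulated counts that held no repeat effect, and the mixture fit on simulated mixtures. The fits with the block, the interaction tests and the permutation tests were not checked in this way. Wild-type and TRα1+m libraries of a repeat were made in the same experiment according to the methods, and the changes from repeat 1 to repeat 2 in both genotypes correlated across 3705 genes (Pearson r = 0.345, log2(CPM + 1)), so the fit with the repeat as a block is given where it changes a call. Named genes were the markers, leading genes of 19 lists, the 10 most abundant and 10 most cluster-enriched genes, called genes or the 10 of lowest p, and genes the study named. Members and lists were chosen with earlier results of these data known. Some genes that this rule names are not reported here.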

Additional observations from a re-analysis of the deposited data

Results flagged for a closer look

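The genotype effect in the cluster differed from that in oligodendrocytes by an interaction test in edgeR for 6 genes, on the log2 scale: Dpyd (2.35), Itih3 (-1.47), Ccnd3 (-1.81), Dnajc15 (3.35), Col23a1 (-2.59) and Nckap5 (-1.13). It differed from that in astrocytes for 12 genes: Tmem117 (-2.24), Chsy3 (2.01), Sox2ot (0.91), Grm7 (-1.18), Ddc (3.18), Anks1b (-1.40), Dnajc15 (3.21), Kirrel3 (0.79), Adipor2 (-1.46), Hhip (2.26), Malat1 (0.49) and Cadps (-1.58). Dnajc15, a mitochondrial co-chaperone, was called against both glial types, but against neither in DESeq2 or in the bias-adjusted edgeR fit. It had 3 and 0 UMIs in wild-type and 22 and 10 UMIs in TRα1+m in the cluster, while oligodendrocytes held 62.9 and 51.6 against 60.6 and 49.9 CPM and astrocytes 51.9 and 52.8 against 58.1 and 57.7 CPM. Itih3, an extracellular matrix stabilising protein rich in astrocytes, was at 501 and 1090 against 273 and 580 CPM in the cluster, and at 750 and 1593 against 433 and 1028 CPM in astrocytes. Oligodendrocytes held 80.2 and 77.8 CPM of Itih3 in wild-type and 80.9 and 167 CPM in TRα1+m, so that TRα1+m repeat 2 alone stood higher there. Hhip, a hedgehog inhibitor, was at 21.7 and 28.9 against 10.4 and 10.9 CPM in astrocytes, at 59.9 and 68.1 against 99.2 and 167 CPM in the cluster, and at 144 and 137 against 208 and 238 CPM in oligodendrocytes. Malat1, a nuclear non-coding RNA, was lowest in wild-type repeat 2 in the cluster and in both glial types. Why these genes differed was not tested.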

How the results depend on the processing

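Having 2 libraries per genotype and few UMIs per gene limits each genotype result, and an undetected difference is not shown to be absent. Genotype calls in the cluster (1 gene) became 11 with no filter on low counts, 57 with the replicate block, 64 with the replicate block in a bias-adjusted fit (added after seeing the data), 0 with equal nuclei (118 genes at an unadjusted p below 0.05), 0 by the rank-sum test, and 3 to 16 with each library left out. The rank-sum test took nuclei as replicates, which they are not, covered 139 genes and used a Bonferroni limit of 1e-20 (11 genes lay below 0.05), so its count cannot be set beside the others. RLE scaling, DESeq2, the bias-adjusted fit and the restriction to nuclei with both lists each called 1. All 57 genes called with the block were among the 64. For single values per library the block gives the same difference by arithmetic, such as 0.0557 percentage points for the share, and is no check of them. Interaction calls with oligodendrocytes (6) became 0 in the bias-adjusted fit (469 genes at an unadjusted p below 0.05), 1 in DESeq2 and 2 to 9 with a library left out. Those with astrocytes (12) became 0 in the bias-adjusted fit (605 genes) and 0 in DESeq2 (125 genes), and 2 to 7 with a library left out. The interaction of Chsy3 with astrocytes ranged from -0.0324 (without TRα1+m repeat 1) to 2.71 with a library left out. The difference in share ranged from -0.0457 to 0.157 percentage points with a library left out, and was 0.23 (log2, adjusted p = 0.964) in edgeR over the nuclei of all clusters. Genes above each other main cluster (19) became 32 at 50 CPM, 4 against sub-clusters, and 27 to 48 with a library left out. Nuclei with both glial lists (99.5%) became 100% at 3 genes, 90.3% after thinning, 66.7% at 1% of UMIs (added after seeing the data), and 99.2 to 100% with a library left out. The astrocyte part was lower in TRα1+m by 3.08 to 5.05 points under each alternative. The cause of these changes was not tested.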
